A study of Mus musculus with 6 samples.

Results

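Trdc encodes the constant region of the T cell receptor delta chain. The cells described here come from mouse melanomas and carry messenger RNA of Trdc and of CD3. They were chosen from raw counts of unique molecular identifiers (UMIs, 1 per captured molecule). A barcode of either deposited pool was kept if it had 500 or more gene UMIs, no more than 10% mitochondrial UMIs, a top mouse tag (hashtag) of at least 10 counts and at least 70% of all hashtag counts in that tag. A kept cell was a member if it held at least 1 Trdc UMI, at least 2 UMIs of Cd3d, Cd3e and Cd3g together, fewer than 2 UMIs of Cd8a and Cd8b1 together, no Foxp3 UMI and fewer than 5 UMIs of C1qa, C1qb and C1qc together. The rule selected 240 of 20407 kept cells, out of 31915 deposited barcodes. The values of those genes chose the cells and are given below as a description, with no test.

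The γδ T cell receptor pairs a gamma with a delta chain and binds ligands without presentation by classical MHC molecules. Mouse γδ T cells acquire much of their program in the thymus. The program that rests on T-bet and Eomes gives interferon gamma and cytotoxic granules, and is often linked to tumour killing. Natural killer (NK) cells share the cytotoxic program but do not rearrange a T cell receptor, although they can transcribe its constant regions.

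CD45-sorted immune cells came from tumours of YUMM1.7, a mouse melanoma line implanted under the skin, and CITE-seq counted transcripts and antibody tags in each cell. The groups were LysM-Cre mice given anti-PD-1, floxed mice given anti-PD-1, LysM-Cre mice given an isotype antibody and floxed mice given the isotype antibody, with 4 mice in each. All mice were female C57BL/6 animals of 8 weeks and carried floxed alleles of Nr3c1, the gene of the glucocorticoid receptor, and LysM-Cre mice also carried Cre under the Lyz2 promoter, which acts in myeloid cells. Each mouse received 250000 tumour cells, 12.5 mg/kg of antibody was given 2 times per week for 3 weeks from about day 7, and tumours were taken on day 28. Each of 2 pools (E5 and E6) mixed 8 hashtagged mice, 2 of every group, and 25000 cells per pool were loaded. The mice of a group are separate animals, numbered here only to name them.

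Pool E5 gave 15301 barcodes and 140 members, and pool E6 gave 16614 barcodes and 100 members. In all, 805 barcodes occurred in both pools (5.26% of pool E5 and 4.85% of pool E6). Of the kept cells 293 carried such a barcode, among them 1 member. The members held a median of 6666.5 gene UMIs, from 2114 to 47848. Another 19 barcodes met the gene rule and failed the hashtag limits.

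Surface protein was read through 15-base DNA tags on antibodies, and those that bear on the identity of the members are printed as the submitters' table lists them. TCRgd binds the γδ receptor, TCRbeta the αβ receptor, CD3 the signalling complex of either, NK1.1 (listed as NK11 in the counts) a receptor of NK cells, CD103 an integrin of resident lymphocytes, and CD44 a receptor of activated cells.
TCRgd: aacccaaatagctga
TCRbeta: tcctatgggactcag
CD3: gtatgtccgctcgat
NK1.1: gtaacattactcgtc
CD103: ttcattagcccgctg
CD44: tggcttcaggtccta

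Members held a median of 6 Trdc UMIs and up to 60, with 36 cells at exactly 1 and 25 cells at 2. The median CD3 count was 14 UMIs, and 9 members lay at the limit of 2. Of the kept cells 4943 reached 2 CD3 UMIs, 2534 of these were under the CD8 limit, 1727 also lacked Foxp3, 1336 also met the C1q limit, and 240 of those held Trdc. Just outside the gate stood 1096 cells that met every condition except Trdc.

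The TCRgd antibody, which the rule did not use, differed on either side of the limit, which is given as a description. At least 3 TCRgd antibody counts were seen on 36.1% of the 36 members with 1 Trdc UMI, 44.0% of the 25 with 2 and 74.9% of the 179 with 3 or more, against 2.01% of the 1096 cells with no Trdc UMI. The members nearest the limit therefore carried the receptor less often than the rest and more often than the cells just outside. Trdc UMIs also occurred outside the members. At least 1 Trdc UMI was seen in 0.842% of 6886 macrophages at a median of 12238 UMIs per cell and in 28.4% of 893 NK cells at a median of 10271.

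Over all 240 members, 158 cells (65.8%) carried at least 3 TCRgd antibody counts. The share was 1.23% of NK cells, 1.61% of 435 CD4 T cells, 1.69% of 1836 CD8 T cells and 24.5% of macrophages, which had a mean of 1.90 TCRgd antibody counts. Macrophages had no CD3 UMI and at least 5 C1q UMIs. The lymphocyte sets were gated on UMIs under the same hashtag, mitochondrial, Foxp3 and C1q limits as the members. NK cells had no CD3 UMI and at least 2 UMIs of Ncr1 and Klrb1c together, CD4 T cells had Cd4 and CD3 but no Trdc, and CD8 T cells had at least 2 CD8 UMIs and CD3 but no Trdc. Mean TCRgd antibody counts per member ranged from 6.56 to 22.9 over the 7 mice with at least 10 members, all of them given the isotype antibody. The mean was 7.0 in members of pool E5 and 28.4 in those of pool E6, where the medians were 4 and 7, and pool E6 also held more antibody counts in all (52124424 against 34191140 in pool E5).

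Few members carried the αβ receptor on the surface. At least 3 TCRbeta antibody counts were seen on 11 members (4.58%), against 90.3% of CD4 T cells and 75.4% of CD8 T cells. Transcripts of the constant regions did not follow that split, since 233 of 240 members held a UMI of Trac, Trbc1 or Trbc2. Trbc2 was detected in 88.3% of members, Trbc1 in 66.3% and Trac in 29.6%, and Trbc1 was detected in 93.3% of NK cells. A gamma constant region (Tcrg-C1, Tcrg-C2 or Tcrg-C4) was detected in 206 members (85.8%). These constant genes include near-identical copies, so the division of UMIs among them is uncertain.

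**Figure D1:**
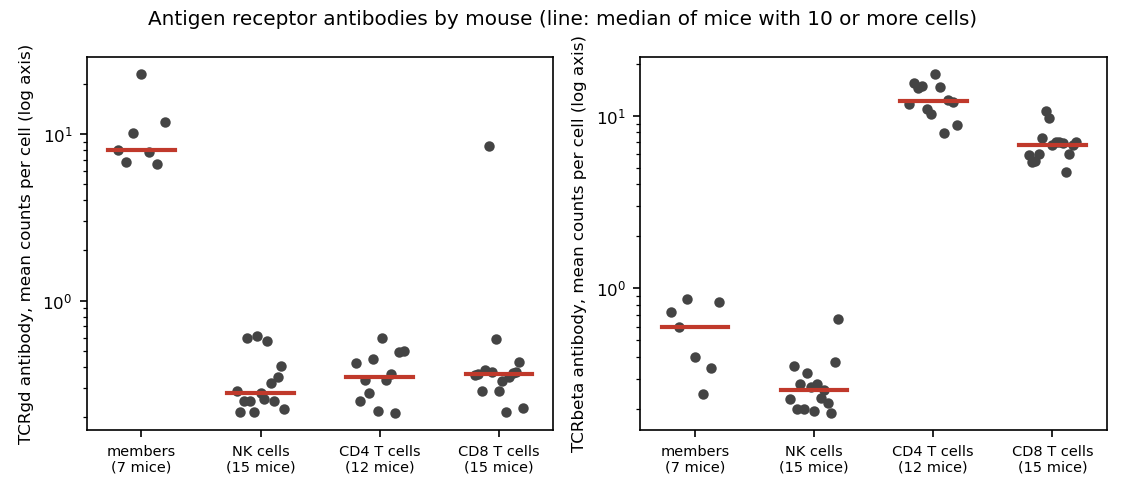
Mean antibody counts per cell of TCRgd (left) and TCRbeta (right) in each mouse with at least 10 cells of the set, on log axes, with the median as a line. Members of the 7 mice stand above every NK and CD4 T cell mouse for TCRgd and below every CD4 and CD8 T cell mouse for TCRbeta, and 1 CD8 T cell mouse reaches the members' range for TCRgd.

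Variable segments were sparse, and the libraries, per the labels, read the 3′ end of transcripts, whereas variable segments lie near the 5′ end. A gamma variable UMI was found in 134 members and a delta variable UMI in 63. Trgv2 was the most frequent, in 105 members (43.8%), followed by Trdv4 in 41 (17.1%) and Tcrg-V1 in 36 (15.0%). Tcrg-V4 was found in 15 members, Tcrg-V6 and Trdv5 in 11 each, and Trdv1 in 10. Tcrg-V5, the segment of epidermal γδ T cells, was found in 4 members. Tcrg-V7 and Trdv2-1 had no UMI in any member. The invariant segments Traj18 and Traj33 of NKT and MAIT cells were at 0 in the members as well.

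Members made up a small and variable share of the tumours' immune cells. LysM-Cre mice given anti-PD-1 held 8, 0, 2 and 0 members, or 1.5%, 0%, 0.315% and 0% of kept cells, where 0 of 603 and 0 of 976 cells allow shares of up to 0.498% and 0.307%. Floxed mice given anti-PD-1 held 8, 1, 3 and 6, or 0.848%, 0.621%, 0.431% and 1.17%. LysM-Cre isotype mice held 22, 32, 15 and 30, or 2.93%, 1.11%, 1.57% and 1.52%. Floxed isotype mice held 37, 32, 36 and 8, or 1.88%, 1.55%, 0.939% and 0.853%. Both LysM-Cre anti-PD-1 mice with no member were the lowest of all mice, and the values of the 4 groups overlapped.

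Set together, anti-PD-1 mice averaged 0.611 ± 0.539% members and isotype mice 1.54 ± 0.660% (SD, n = 8 each). The difference of -0.934 percentage points gave p = 0.00939 in an exact two-sided permutation test within genotype, and 0.113 after Benjamini-Hochberg adjustment over 12 share tests, so it did not pass. It passed with the 10% of barcodes of highest doublet score removed (-1.01 points, exact adjusted p = 0.0490) and without LysM-Cre anti-PD-1 mouse 1 (-1.06 points, exact adjusted p = 0.0343). Within pool E5 anti-PD-1 mice averaged 0.743% and isotype mice 1.87%, a difference of -1.13 points, and within pool E6 anti-PD-1 mice averaged 0.479% and isotype mice 1.22%, a difference of -0.741 points. CD3-positive cells of all kinds made up 17.6 ± 9.11% of kept cells in LysM-Cre anti-PD-1, 14.5 ± 3.74% in floxed anti-PD-1, 29.5 ± 7.21% in LysM-Cre isotype and 28.6 ± 8.21% in floxed isotype mice (SD, n = 4). Among CD3-positive cells members averaged 3.75 ± 3.06% in anti-PD-1 and 5.23 ± 1.34% in isotype mice (SD, n = 8 each). That difference of -1.48 points did not pass (exact permutation p = 0.230, adjusted 0.394). The part of the difference in CD3-positive cells in the members' share of kept cells was not tested. Depth per cell overlapped between the treatments. The median UMIs of CD3-positive cells ranged from 5621 to 6924.5 over anti-PD-1 mice and from 5262 to 7241 over isotype mice. The median UMIs of members ranged from 5130 to 9541.5 over the 6 anti-PD-1 mice that held any, and from 5011.5 to 8298 over isotype mice.

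Within each genotype the difference in the share of kept cells did not pass the threshold either. The difference of anti-PD-1 from isotype was -1.33 points in LysM-Cre mice (exact p = 0.0571, adjusted 0.229) and -0.540 points in floxed mice (exact p = 0.114, adjusted 0.274). Between genotypes, LysM-Cre mice averaged 0.455 ± 0.715% and floxed mice 0.768 ± 0.318% with anti-PD-1, and LysM-Cre mice 1.78 ± 0.789% and floxed mice 1.31 ± 0.495% with isotype (SD, n = 4). Exact p was 0.457 with anti-PD-1 and 0.429 with isotype, and both were 0.499 after adjustment. With 4 mice against 4 the smallest p that the test can give is 0.0286.

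Among CD3-positive cells the difference between treatments had a different sign in each genotype. Members were 4.82%, 0%, 2.56% and 0% of CD3-positive cells in LysM-Cre anti-PD-1 mice and 7.77%, 5.00%, 2.22% and 7.59% in floxed anti-PD-1 mice. The shares were 7.56%, 4.73%, 4.93% and 6.36% in LysM-Cre isotype mice and 6.08%, 3.99%, 4.69% and 3.48% in floxed isotype mice. The anti-PD-1 difference was -4.05 points in LysM-Cre mice (exact p = 0.0571, adjusted 0.229) and 1.09 points in floxed mice (exact p = 0.457, adjusted 0.499). The difference of these differences, a test added after the data were seen, was -5.14 points (exact permutation p = 0.0245, adjusted 0.0490 over 2 tests). Those 2 tests stand apart from the 12 share tests. The p comes from relabelling genotypes within each treatment, so it does not isolate a difference between treatment effects. The difference of differences was -5.09 points within pool E5 and -5.19 points within pool E6. The exact p was 0.0555 without mouse 2 or mouse 4 of the LysM-Cre anti-PD-1 group and 0.0551 without mouse 1 or mouse 4 of the floxed anti-PD-1 group, and over all 16 mice left out singly it ran from 0.00939 to 0.0555. The anti-PD-1 shares rest on 10 members in LysM-Cre and 18 in floxed mice. The 5.00% of floxed anti-PD-1 mouse 2 is 1 member of 20 CD3-positive cells.

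**Figure D2:**
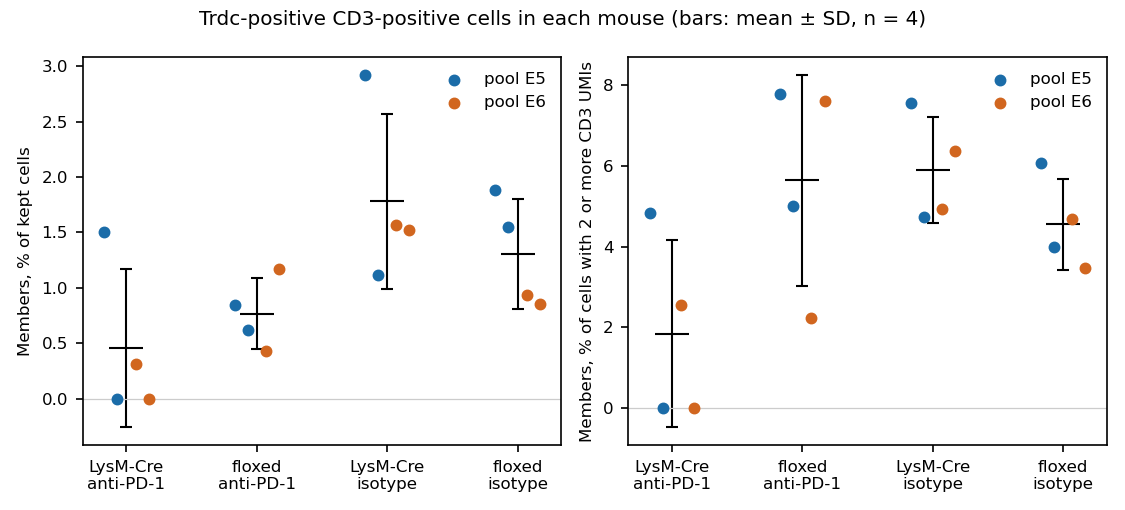
Members as a percentage of kept cells (left) and of cells with 2 or more CD3 UMIs (right) in each mouse, coloured by pool, with the mean and SD of 4 mice per group. Both LysM-Cre anti-PD-1 mice at 0 stand below all other mice, and the remaining mice of the 4 groups overlap.

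Levels were compared in the same 7 isotype mice, which each held at least 10 members, by summing UMIs per mouse and cell set and fitting edgeR with the mouse as a block. Values are UMIs scaled to the same total in every set (CPM), and adjusted p is Benjamini-Hochberg over all genes tested. Summed gene UMIs of the members ranged from 102496 to 345544 per mouse. Against NK cells, 280 of 6376 genes were higher in the members (4.39%) and 271 lower (4.25%). A gene used by either gate was not counted.

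Of 6 γδ receptor genes tested, 5 were higher than in NK cells. Tcrg-C1 ranged from 137 to 202 CPM in the members (median 172), against 0 to 1.97 CPM in NK cells (median 0) (log2 change 7.83, SE 0.30, adjusted p = 8.03e-10). Tcrg-C4 ranged from 133 to 219 CPM in the members (median 175), against 13.8 to 41.0 CPM in NK cells (median 19.2) (log2 change 2.90, SE 0.18, adjusted p = 1.04e-07). Trgv2 ranged from 66.3 to 166 CPM in the members (median 88.0), against 0 to 1.35 CPM in NK cells (median 0) (165 UMIs in all against 2, adjusted p = 1.23e-08). No value of the members overlapped those of NK cells for these 3 genes. Tcrg-V1 overlapped at 0, and was 19.9 ± 15.8 CPM in the members, against 0.907 ± 0.856 CPM in NK cells (SD, n = 7, adjusted p = 0.00434).

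The αβ constant genes were above the NK level too, at 2 of 3. Trac ranged from 34.7 to 107 CPM in the members (median 76.6), against 5.36 to 17.1 CPM in NK cells (median 9.85) (log2 change 2.63, SE 0.25, adjusted p = 1.16e-05). Bcl11b, a transcription factor of T lineage commitment, ranged from 78.0 to 143 CPM in the members (median 95.5), against 0 to 5.36 CPM in NK cells (median 1.62) (log2 change 5.61, SE 0.35, adjusted p = 1.32e-07). Lat, the adaptor beneath the T cell receptor, ranged from 65.7 to 136 CPM in the members (median 110), against 16.4 to 38.4 CPM in NK cells (median 26.1) (log2 change 2.02, SE 0.17, adjusted p = 4.38e-06). For all 3 the groups were separate. Cd6, a costimulatory receptor of T cells, had 59 UMIs in the members and 1 in NK cells (adjusted p = 3.23e-05).

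Cd163l1, the scavenger receptor SCART1, ranged from 42.4 to 139 CPM in the members (median 85.8), against 0 to 4.86 CPM in NK cells (median 0) (log2 change 5.94, SE 0.42, adjusted p = 6.95e-07). Blk, a Src-family kinase, ranged from 15.9 to 55.7 CPM in the members (median 23.4), against 0 CPM in every mouse in NK cells (57 UMIs in all against 0, at least 90.9-fold higher, adjusted p = 0.00159). Maf, a transcription factor, ranged from 83.9 to 164 CPM in the members (median 117), against 39.6 to 64.2 CPM in NK cells (median 47.6) (log2 change 1.16, SE 0.14, adjusted p = 1.22e-04). Every mouse was higher in the members for the 3 genes. Il7r, the interleukin 7 receptor, ranged from 149.9 to 693 CPM in the members (median 218), against 0 to 60.7 CPM in NK cells (median 6.70) (log2 change 4.04, SE 0.31, adjusted p = 1.30e-06).

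Of the cytotoxic list 8 of 20 genes were lower and 3 were higher, with a median log2 change of -0.48. Gzma, a granzyme, ranged from 0 to 359 CPM in the members (median 101), against 1255 to 3098 CPM in NK cells (median 2482) (log2 change -4.33, SE 0.36, adjusted p = 2.99e-06). Gzmc ranged from 424 to 4235 CPM in the members (median 1591), against 5649.9 to 9545 CPM in NK cells (median 7335) (log2 change -2.39, SE 0.28, adjusted p = 6.56e-05). Prf1, the pore-forming protein of granules, ranged from 42.4 to 208 CPM in the members (median 164), against 435 to 958 CPM in NK cells (median 669.6) (log2 change -2.27, SE 0.24, adjusted p = 3.02e-05). The members were below NK cells in each of the 7 mice, with no overlap. Tbx21 (T-bet) ranged from 9.76 to 37.6 CPM in the members (median 23.4), against 44.3 to 68.3 CPM in NK cells (median 58.9) (log2 change -1.22, SE 0.21, adjusted p = 0.00159). Eomes ranged from 45.6 to 109 CPM in the members (median 78.1), against 91.9 to 219.9 CPM in NK cells (median 182) (log2 change -1.27, SE 0.20, adjusted p = 9.12e-04). The groups overlapped for Eomes and not for Tbx21. Ccl5, Cd27 and Cxcr3 were the 3 higher genes. Gzmf, which is not on the list, was also called lower, and its call was lost without any 1 of 5 mice (adjusted p up to 0.0869). Granzymes C, D, E and F are close paralogs, so UMIs may be divided between them.

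Of the NK receptor list none was higher and 13 of 19 were lower, with a median log2 change of -0.91. Klra8, the activating receptor Ly49H, ranged from 0 to 98.5 CPM in the members (median 19.5), against 113 to 318 CPM in NK cells (median 196) (log2 change -2.51, SE 0.32, adjusted p = 1.69e-04). Klrb1b, an inhibitory receptor from the list of invariant T cells, ranged from 11.7 to 87.6 CPM in the members (median 45.6), against 181 to 423 CPM in NK cells (median 235) (log2 change -2.46, SE 0.21, adjusted p = 3.54e-06). Tyrobp, the adaptor DAP12, ranged from 648 to 1295 CPM in the members (median 812), against 1760.2 to 2480.2 CPM in NK cells (median 2094) (log2 change -1.35, SE 0.11, adjusted p = 2.17e-06). The 3 genes did not overlap between the sets. The call of Klra5 was lost with at least 5 cells per mouse (adjusted p = 0.148). Ncr1 and Klrb1c gated the NK cells and were not tested. As a description, 120 members (50%) held a UMI of Ncr1 or Klrb1c.

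Interferon-stimulated genes were higher than in NK cells in 18 of 25, with a median log2 change of 0.74. Ifi27l2a ranged from 296 to 1794 CPM in the members (median 675), against 85.1 to 306 CPM in NK cells (median 145) (log2 change 2.14, SE 0.12, adjusted p = 6.09e-08). Irf7, a regulator of the interferon response, ranged from 109 to 511 CPM in the members (median 137), against 52.2 to 156 CPM in NK cells (median 74.2) (log2 change 1.04, SE 0.15, adjusted p = 5.29e-04). Members were higher within every mouse for both genes, although the ranges over mice overlapped. Isg15 was called (adjusted p = 0.0388) and lost its call without any of 5 of the mice, with adjusted p up to 0.149. The same list had 0 of 25 genes higher and 2 lower against CD4 T cells, with a median log2 change of -0.19. It had 0 of 25 higher and 2 lower against CD8 T cells, with a median of -0.17. Ifi27l2a and Ly6a were the lower genes in both.

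Genes of recirculating lymphocytes were higher in 5 of 8. S1pr1, the receptor for exit from tissue, ranged from 42.4 to 107 CPM in the members (median 52.2), against 0 to 5.91 CPM in NK cells (median 3.10) (log2 change 4.19, SE 0.39, adjusted p = 8.72e-06). Ccr7, the lymph node homing receptor, ranged from 13.0 to 45.2 CPM in the members (median 29.3), against 0 to 3.10 CPM in NK cells (median 0.676) (log2 change 4.75, SE 0.69, adjusted p = 4.73e-04). Neither overlapped. Klf2, which drives S1pr1, ranged from 202 to 434 CPM in the members (median 313), against 67.5 to 290.1 CPM in NK cells (median 124) (log2 change 1.11, SE 0.17, adjusted p = 9.12e-04). Lef1 and Tcf7 were called, and lost the call without 5 and 3 of the mice, with adjusted p up to 0.0769 and 0.0604. Of the residency list, Itgae (CD103) ranged from 8.68 to 53.1 CPM in the members (median 29.3), against 0.656 to 10.8 CPM in NK cells (median 3.24) (log2 change 2.82, SE 0.45, adjusted p = 0.00104), and Cxcr6, a chemokine receptor of resident lymphocytes, ranged from 39.0 to 189 CPM in the members (median 153), against 10.5 to 34.5 CPM in NK cells (median 19.6) (log2 change 2.87, SE 0.27, adjusted p = 1.15e-05). Itga1, Rgs1, Rgs2 and Bhlhe40 of the same list were lower, and the call of Itga1 was lost without any 1 of 3 mice (adjusted p up to 0.0809). Cxcr6 was lower than in both CD4 and CD8 T cells, as were Prdm1 and Bhlhe40, or 3 of 9 residency genes in each comparison. Itga1 was the 1 gene higher than in CD4 T cells, and 0 were higher than in CD8 T cells. The Prdm1 call against CD8 T cells was lost without either of 2 mice (adjusted p up to 0.0677).

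Outside the lists, Ikzf2 (Helios) ranged from 111 to 400.2 CPM in the members (median 332), against 29.2 to 54.5 CPM in NK cells (median 47.6) (log2 change 2.56, SE 0.20, adjusted p = 1.96e-06). Irf8 ranged from 47.7 to 263 CPM in the members (median 133), against 417 to 857 CPM in NK cells (median 689) (log2 change -2.35, SE 0.24, adjusted p = 2.49e-05). Tnfrsf9, the costimulatory receptor 4-1BB, ranged from 63.7 to 139 CPM in the members (median 109), against 256 to 437 CPM in NK cells (median 281) (log2 change -1.60, SE 0.16, adjusted p = 2.16e-05). Each was separate between the sets. Of 13 glucocorticoid-responsive genes, Dusp1, Txnip and Cxcr4 were higher and Mt1 and Mt2 lower. The calls of Dusp1, Mt1 and Mt2 were lost without at least 1 mouse, with adjusted p up to 0.10, 0.0581 and 0.0745, and that of Txnip without the replicate block (adjusted p = 0.130).

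At the protein level 14 of 74 antibodies were higher than on NK cells (18.9%) and 8 lower (10.8%). Values are antibody counts scaled in the same way to all antibody counts of the set (antibody CPM). The counts include TCRgd, CD3 and NK1.1, which are given no test here because the gates used transcripts of Trdc, the CD3 genes and Klrb1c. TCRgd ranged from 6869 to 25100 antibody CPM in the members (median 12193), against 361 to 814 antibody CPM in NK cells (median 471). CD5, a damping receptor of T cell signalling, ranged from 19818 to 51786 antibody CPM in the members (median 34449), against 2390.2 to 4329.7 antibody CPM in NK cells (median 3061) (log2 change 3.39, SE 0.26, adjusted p = 3.19e-06). CD103 ranged from 3739 to 36279 antibody CPM in the members (median 7530.2), against 271 to 1825 antibody CPM in NK cells (median 659) (log2 change 3.62, SE 0.36, adjusted p = 2.78e-05). The sets were apart for the 3 antibodies. CD127, the interleukin 7 receptor, ranged from 1386 to 4034 antibody CPM in the members (median 1708), against 139.8 to 483 antibody CPM in NK cells (median 245) (log2 change 2.91, SE 0.29, adjusted p = 2.87e-05), the same direction as its transcript. As a description, NK1.1 was at 31489 ± 15351 antibody CPM in the members, against 79064 ± 23285 antibody CPM in NK cells (SD, n = 7). CD137 (4-1BB), CD223 (LAG-3) and TIGIT were lower on the members, at adjusted p = 0.00206, 0.00425 and 0.00992.

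Against CD4 T cells, 329 of 5688 genes were higher in the members (5.78%) and 289 lower (5.08%). All 5 γδ receptor genes tested were higher. They include Trdv4, a variable segment of the delta chain, whose constant region Trdc the gates used, so its direction is no independent result. Tcrg-C4 ranged from 133 to 219 CPM in the members (median 175), against 0 CPM in every mouse in CD4 T cells (316 UMIs in all against 0, at least 116-fold higher, adjusted p = 5.68e-07). Trac ranged from 34.7 to 107 CPM in the members (median 76.6), against 545 to 1086 CPM in CD4 T cells (median 753) (log2 change -3.30, SE 0.18, adjusted p = 3.18e-09). Trbc2 ranged from 416 to 823 CPM in the members (median 525), against 719 to 1503 CPM in CD4 T cells (median 1106) (log2 change -0.82, SE 0.10, adjusted p = 4.97e-05). The sets were apart for Tcrg-C4 and Trac and overlapped for Trbc2.

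Of 21 NK receptor genes, 16 were higher and 2 lower, with a median log2 change of 2.51 against 0.02 over all genes. Klrb1c (NK1.1) ranged from 122 to 537 CPM in the members (median 238), against 0 to 16.8 CPM in CD4 T cells (median 0) (log2 change 5.44, SE 0.40, adjusted p = 9.95e-08). Klre1 ranged from 97.6 to 359 CPM in the members (median 209), against 0 to 20.5 CPM in CD4 T cells (median 8.71) (log2 change 4.77, SE 0.32, adjusted p = 4.02e-08). Fcer1g, an adaptor of activating receptors, ranged from 854 to 1584 CPM in the members (median 1215), against 51.4 to 433 CPM in CD4 T cells (median 256) (log2 change 2.51, SE 0.30, adjusted p = 2.55e-05). None of the 3 overlapped. Of 19 cytotoxic genes 11 were higher. Gzmc ranged from 424 to 4235 CPM in the members (median 1591), against 0 to 102 CPM in CD4 T cells (median 22) (log2 change 5.66, SE 0.41, adjusted p = 8.32e-08). Prf1 ranged from 42.4 to 208 CPM in the members (median 164), against 0 to 110.1 CPM in CD4 T cells (median 24.4) (log2 change 2.32, SE 0.28, adjusted p = 3.61e-05). Gzma and Gzmb were called, and lost the call without each of 2 mice (adjusted p up to 0.107 and 0.0545) and among members with at least 3 TCRgd antibody counts (adjusted p = 0.328 and 0.410).

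Outside the lists, Tnfrsf4, the costimulatory receptor OX40, ranged from 0 to 9.76 CPM in the members (median 3.65), against 267 to 758 CPM in CD4 T cells (median 637) (log2 change -7.23, SE 0.30, adjusted p = 1.66e-10). Icos, another costimulatory receptor, ranged from 14.6 to 66.3 CPM in the members (median 46.3), against 220.4 to 420.1 CPM in CD4 T cells (median 362) (log2 change -2.89, SE 0.22, adjusted p = 1.66e-07). Cd40lg, the helper ligand CD40L, had 2 UMIs in the members and 160 in CD4 T cells (adjusted p = 7.31e-07). Cd28 ranged from 48.8 to 97.5 CPM in the members (median 75.0), against 244 to 379 CPM in CD4 T cells (median 301) (log2 change -1.82, SE 0.17, adjusted p = 1.23e-06). Members were lower in every mouse for these genes. Il10, an inhibitory cytokine, was at 0 CPM in every mouse in the members, against 0 to 104 CPM in CD4 T cells (median 11.6) (0 UMIs in all against 49, at least 14.8-fold lower, adjusted p = 0.0113). The transcription factors Maf and Rora were lower in the members, at log2 changes of -2.05 and -2.29 (adjusted p = 5.05e-06 and 1.40e-06).

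Of 10 inhibitory receptor genes tested against CD4 T cells, 5 were lower and Cd160 was higher. The call of Lag3 among them was lost without either of 2 mice (adjusted p up to 0.0555). Ctla4 ranged from 2.89 to 39.0 CPM in the members (median 7.80), against 61.5 to 579.7 CPM in CD4 T cells (median 231) (log2 change -4.13, SE 0.22, adjusted p = 2.42e-09). Pdcd1, which encodes PD-1, ranged from 2.89 to 83.5 CPM in the members (median 22.8), against 40.6 to 374 CPM in CD4 T cells (median 151) (log2 change -2.26, SE 0.29, adjusted p = 6.02e-05). Cd160 had 167 ± 40.5 CPM in the members, against 3.74 ± 5.25 CPM in CD4 T cells (SD, n = 7, log2 change 5.59, SE 0.42, adjusted p = 1.64e-07). Ctla4 and Cd160 did not overlap and Pdcd1 did. Of 13 glucocorticoid-responsive genes 3 were lower. Nr3c1 itself ranged from 60.8 to 138 CPM in the members (median 83.5), against 103 to 287 CPM in CD4 T cells (median 129) (log2 change -0.81, SE 0.18, adjusted p = 0.00606). The Nr3c1 call was lost among members with at least 3 TCRgd antibody counts (adjusted p = 0.0759).

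On the surface 9 of 70 antibodies were higher than on CD4 T cells (12.9%) and 12 lower (17.1%). These include TCRgd and CD4, whose transcripts the gates used. The fit also normalizes between sets (TMM), which the printed values do not. CD43, counted as lower, was at 83424 antibody CPM in the members and 84516 in CD4 T cells, with that sign in 4 of 7 mice. NK1.1 ranged from 16058 to 57887 antibody CPM in the members (median 26056), against 463 to 1558 antibody CPM in CD4 T cells (median 1162) (log2 change 4.18, SE 0.27, adjusted p = 4.14e-07). TCRbeta ranged from 382 to 1417 antibody CPM in the members (median 599), against 5267 to 11571 antibody CPM in CD4 T cells (median 8814) (log2 change -4.26, SE 0.24, adjusted p = 1.99e-07). CD5 ranged from 19818 to 51786 antibody CPM in the members (median 34449), against 188190 to 268720 antibody CPM in CD4 T cells (median 247890) (log2 change -3.56, SE 0.19, adjusted p = 1.63e-07). The 3 antibodies were apart between the sets. CD279 (PD-1) ranged from 402 to 1526 antibody CPM in the members (median 615), against 685 to 2802 antibody CPM in CD4 T cells (median 1790.3) (log2 change -1.75, SE 0.23, adjusted p = 1.98e-04), with overlap.

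Against CD8 T cells, 153 of 7540 genes were higher in the members (2.03%) and 143 lower (1.90%). All 7 γδ receptor genes tested were higher. They include the delta variable segments Trdv4 and Trdv5, whose direction is no independent result because the gates used Trdc of the same chain. Tcrg-C1 ranged from 137 to 202 CPM in the members (median 172), against 0.484 to 18.2 CPM in CD8 T cells (median 5.49) (log2 change 4.53, SE 0.33, adjusted p = 3.85e-07). Tcrg-C4 ranged from 133 to 219 CPM in the members (median 175), against 0 to 15.2 CPM in CD8 T cells (median 5.95) (log2 change 4.61, SE 0.26, adjusted p = 1.45e-08). Trgv2 ranged from 66.3 to 166 CPM in the members (median 88.0), against 10.8 to 106 CPM in CD8 T cells (median 25.2) (log2 change 1.63, SE 0.31, adjusted p = 0.00428). Trgv2 overlapped and the constant genes did not. Tcrg-C2 was called (adjusted p = 0.0262) and lost its call without any of 5 of the mice, with adjusted p up to 0.109. The call of Trdv5 was lost in DESeq2 (adjusted p = 0.513), and that of Trgv2 without the replicate block (adjusted p = 0.0819).

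Of 20 NK receptor genes 10 were higher, with a median log2 change of 1.14 against 0.00 over all genes. Ncr1 and Tyrobp below belong to that list, and Cd163l1, Maf, Tmem176a and Zbtb16 do not. Cd163l1 ranged from 42.4 to 139 CPM in the members (median 85.8), against 0 to 9.33 CPM in CD8 T cells (median 3.39) (log2 change 4.63, SE 0.39, adjusted p = 1.20e-06). Maf ranged from 83.9 to 164 CPM in the members (median 117), against 29.5 to 55.3 CPM in CD8 T cells (median 37.3) (log2 change 1.63, SE 0.16, adjusted p = 1.02e-05). Tmem176a, an intracellular ion channel, ranged from 73.0 to 133 CPM in the members (median 104), against 7.10 to 26.9 CPM in CD8 T cells (median 8.72) (log2 change 3.25, SE 0.28, adjusted p = 1.61e-06). Zbtb16, which encodes PLZF, the factor of innate-like T cells, had 29 UMIs in the members and 3 in CD8 T cells (adjusted p = 0.00129). Ncr1, the receptor NKp46, ranged from 48.8 to 196 CPM in the members (median 161), against 0 to 16.9 CPM in CD8 T cells (median 1.45) (log2 change 5.87, SE 0.45, adjusted p = 5.50e-07). Tyrobp ranged from 648 to 1295 CPM in the members (median 812), against 84.0 to 365 CPM in CD8 T cells (median 174) (log2 change 2.26, SE 0.21, adjusted p = 3.67e-06). The sets were apart for all of these.

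Of 20 cytotoxic genes 3 were higher (Gzmc, Xcl1 and Eomes) and 7 lower. Among members with at least 3 TCRgd antibody counts the calls of Eomes and of the lower gene Ccl3 were lost (adjusted p = 0.556 and 0.0645), and that of Fasl was lost without any 1 of 6 mice (adjusted p up to 0.0860). Gzmc ranged from 424 to 4235 CPM in the members (median 1591), against 19.7 to 104 CPM in CD8 T cells (median 83.3) (log2 change 4.79, SE 0.24, adjusted p = 3.13e-09). Xcl1, a chemokine for cross-presenting dendritic cells, ranged from 281 to 2098 CPM in the members (median 1040.4), against 216 to 461 CPM in CD8 T cells (median 259.6) (log2 change 1.74, SE 0.25, adjusted p = 4.09e-04). Ifng ranged from 19.5 to 104 CPM in the members (median 60.8), against 68.8 to 734 CPM in CD8 T cells (median 234) (log2 change -2.01, SE 0.23, adjusted p = 4.40e-05). Ccl4 ranged from 26.0 to 527 CPM in the members (median 124), against 357 to 1928 CPM in CD8 T cells (median 835) (log2 change -2.38, SE 0.48, adjusted p = 0.00833). Ccl5 ranged from 1401 to 2517 CPM in the members (median 1735), against 2651 to 4105 CPM in CD8 T cells (median 3191) (log2 change -0.77, SE 0.09, adjusted p = 4.78e-05). Gzmc and Ccl5 did not overlap. Gzmk, a granzyme of memory CD8 T cells, had 3 UMIs in the members and 834 in CD8 T cells (adjusted p = 2.15e-07).

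Of 9 genes in the inhibitory receptor list 6 were lower and Cd160 was higher. The call of Cd160 was lost among members with at least 3 TCRgd antibody counts (adjusted p = 0.274), and that of Nr4a2, a lower gene, without floxed isotype mouse 1 (adjusted p = 0.0558). Pdcd1 ranged from 2.89 to 83.5 CPM in the members (median 22.8), against 42.1 to 203 CPM in CD8 T cells (median 161) (log2 change -2.22, SE 0.33, adjusted p = 7.18e-04). Havcr2 (TIM-3) ranged from 0 to 17.4 CPM in the members (median 2.89), against 26.7 to 107 CPM in CD8 T cells (median 70.5) (log2 change -3.63, SE 0.36, adjusted p = 1.02e-05). Entpd1 (CD39) ranged from 0 to 14.5 CPM in the members (median 6.96), against 19.7 to 69.1 CPM in CD8 T cells (median 47.6) (log2 change -2.60, SE 0.31, adjusted p = 5.89e-05). Havcr2 and Entpd1 were apart between the sets, and Pdcd1 overlapped. Themis and Cd6, of T cell signalling, were lower at log2 changes of -3.01 and -2.36 (adjusted p = 1.06e-06 and 4.74e-07).

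Of 83 antibodies 11 were higher on the members (13.3%) and 12 lower (14.5%), including TCRgd, CD3 and CD8a, whose transcripts the gates used. TIM3 ranged from 109 to 838 antibody CPM in the members (median 189), against 1056 to 3748 antibody CPM in CD8 T cells (median 2561) (log2 change -2.97, SE 0.37, adjusted p = 4.02e-05). CD279 ranged from 402 to 1526 antibody CPM in the members (median 615), against 1187 to 3205 antibody CPM in CD8 T cells (median 2439) (log2 change -1.87, SE 0.28, adjusted p = 2.19e-04). CD39 ranged from 9974 to 19726 antibody CPM in the members (median 11362), against 16880 to 39996 antibody CPM in CD8 T cells (median 26228) (log2 change -1.14, SE 0.15, adjusted p = 6.35e-05). TIM3 was apart between the sets. As a description, CD3 was at 20887 ± 12330 antibody CPM in the members, against 7684 ± 4612 antibody CPM in CD8 T cells (SD, n = 7).

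**Figure D3:**
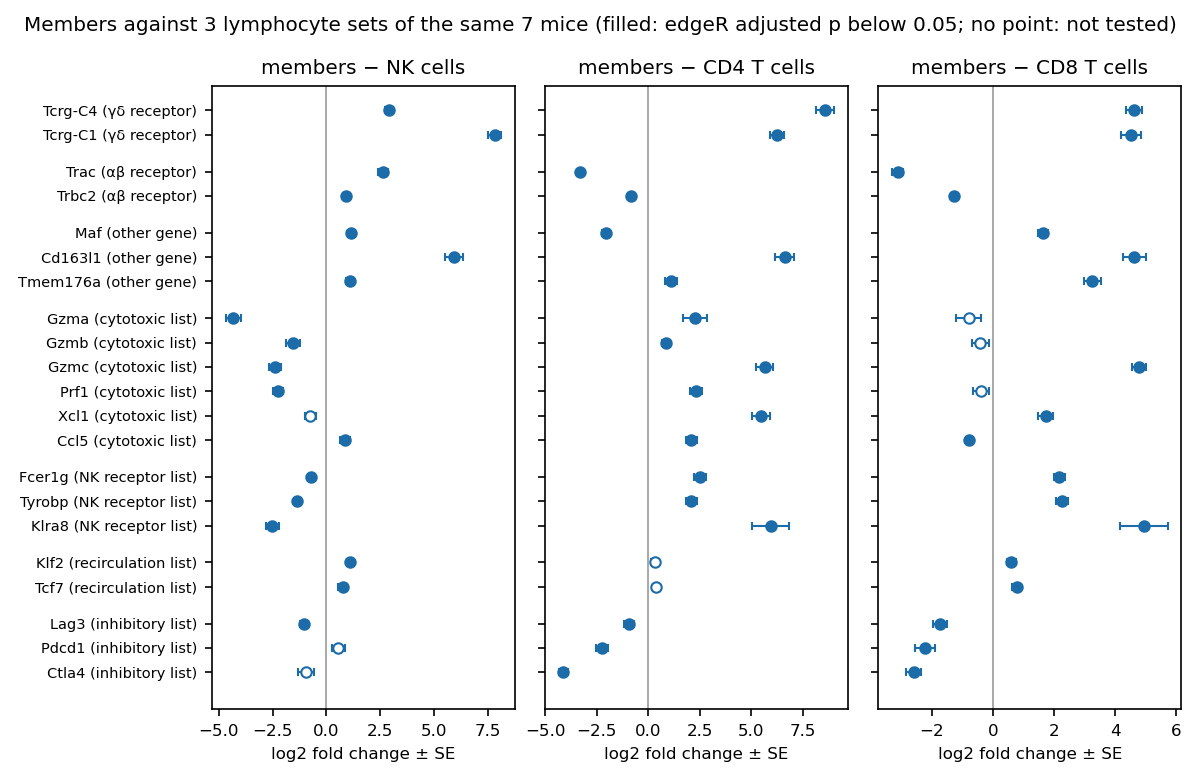
Log2 fold change ± SE of members against NK cells (left), CD4 T cells (middle) and CD8 T cells (right) for genes of 6 lists and 3 other genes in the same 7 mice, filled where the edgeR adjusted p is below 0.05. Gzmc, Fcer1g and Tyrobp lie below 0 against NK cells and above 0 against both T cell sets, Tcrg-C1 and Tcrg-C4 lie above 0 in all 3, and Lag3 lies below 0 in all 3. The scale differs between the panels.

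The marker genes Xcl1, Ctsw (cathepsin W of cytotoxic lymphocytes), Gimap4 (a lymphocyte GTPase) and Txk (a Tec-family kinase) were not used by the rule. As markers of these cells they were chosen with earlier results of these data known, so their direction is no independent result. All 4 were higher than in CD4 T cells. Xcl1 ranged from 281 to 2098 CPM in the members (median 1040.4), against 0 to 90.6 CPM in CD4 T cells (median 8.13) (log2 change 5.47, SE 0.43, adjusted p = 2.24e-07), and Ctsw ranged from 414 to 739.8 CPM in the members (median 611), against 92.8 to 204 CPM in CD4 T cells (median 147) (log2 change 2.18, SE 0.17, adjusted p = 2.33e-07). Against CD8 T cells Xcl1 and Txk were higher and Ctsw and Gimap4 did not pass (adjusted p = 0.258 and 0.203). Against NK cells Txk was lower, at 418 ± 106 CPM in the members, against 568 ± 99.6 CPM in NK cells (SD, n = 7, log2 change -0.51, SE 0.11, adjusted p = 0.0115), a call lost with at least 5 cells per mouse (adjusted p = 0.0872). The edgeR test was not passed by Xcl1, Ctsw and Gimap4 (adjusted p = 0.0972, 0.0608 and 0.0567). A p that misses the threshold does not show that the levels were equal.

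The members varied among themselves. Ordered by TCRgd antibody counts of 0, 1 to 2, 3 to 5, 6 to 10 and 11 or more, the 5 bins held 34, 48, 43, 43 and 72 cells of all mice. Mean NK1.1 antibody counts were 39.9, 31.7, 27.1, 14.3 and 12.3 along that order, and mean CD103 antibody counts were 0.147, 2.92, 0.837, 3.44 and 42.0. The medians of CD103 were 0, 0, 0, 0 and 4, far below the mean in the top bin. Mean CD3 antibody counts were 5.21, 7.06, 13.3, 19.1 and 39.5. The 34 members with no TCRgd count had a median of 1 CD3 and 43 NK1.1 antibody counts, near the 0 and 48 of NK cells. High NK1.1 and high CD103 were nearly exclusive, since 91 members had at least 20 NK1.1 counts, 27 had at least 20 CD103 counts and 2 had both.

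Trdc was at 345, 645, 1084, 947 and 1379 CPM and Tcrg-C1 at 51.0, 98.2, 86.3, 167 and 405 CPM. Ncr1 was at 273, 205, 118, 75.5 and 93.9 CPM, and Gzmb at 970, 643, 643, 381 and 316 CPM. Cd163l1 was at 7.66, 4.46, 44.8, 94.4 and 243 CPM. Xcl1 was at 1794, 1548, 1001, 783 and 814 CPM. Neutrophil transcripts and Fos, a gene of the stress list, were also highest in the top bin. Heat-shock genes of that list were not. Hspa1a was at 115, 37.9, 92.7, 75.5 and 50.2 CPM, and Hsp90aa1 at 510, 321, 460, 362 and 468 CPM. Along the bins S100a8 was at 30.6, 203, 44.8, 50.3 and 1336 CPM, S100a9 at 51.0, 319, 41.6, 75.5 and 1854 CPM, Retnlg at 5.10, 17.8, 0, 6.29 and 251 CPM, and Fos at 319, 426, 457, 582 and 1193 CPM. Their part in the order of the other values was not tested. The bins are a description over cells with no test. Both antibody and transcript of a cell depend on its depth, and the pools differed in antibody depth.

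**Figure D4:**
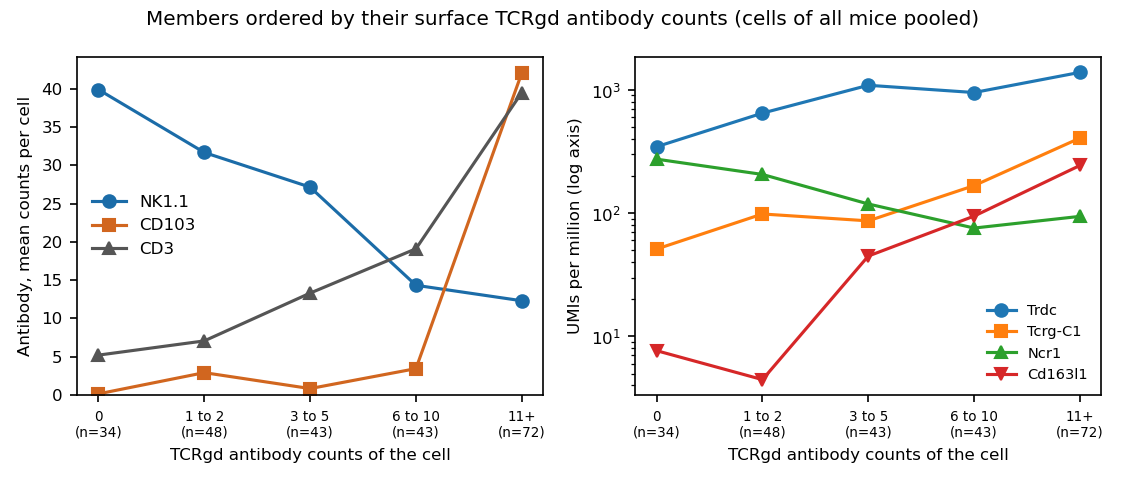
Members grouped by TCRgd antibody counts on the x axis, cells of all mice pooled, with mean antibody counts per cell (left) and CPM on a log axis (right). NK1.1 and Ncr1 are highest in the lowest bin, and CD103 and Cd163l1 are highest in the top bin.

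Treatment was tested in 11 mice with at least 5 members, of which 3 received anti-PD-1. The limit of 10 members set for the other fits left no anti-PD-1 mouse. Of 3939 genes 3 passed (0.0762%), all higher with anti-PD-1. Ifitm1, an interferon-induced membrane protein, was at 562 CPM in LysM-Cre anti-PD-1 mouse 1, 325 CPM in floxed anti-PD-1 mouse 1 and 1625 CPM in floxed anti-PD-1 mouse 4, against 9.76 to 233 CPM (median 57.8) in 8 isotype mice. Its log2 change was 3.3 (SE 0.51, adjusted p = 0.0154) with no overlap, and the call was lost without any 1 of 5 mice (LysM-Cre anti-PD-1 mouse 1, floxed anti-PD-1 mouse 4, or floxed isotype mouse 1, 2 or 4), with adjusted p up to 0.566. Penk, the precursor of enkephalin, was at 0, 168 and 1336 CPM in the same 3 mice, against 0 to 10.6 CPM (median 0). Igfbp3, a binding protein of insulin-like growth factors, was at 0, 817 and 124 CPM, against 0 to 3.65 CPM (median 0).

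The 3 genes came from few cells. Of 28 members of anti-PD-1 mice, Igfbp3 was found in 4 and Penk in 3, and 1 cell held 78 of 87 Igfbp3 UMIs and 1 cell 97 of 113 Penk UMIs. Of 189 Ifitm1 UMIs 1 cell held 108. DESeq2 called 6 genes, and gave Igfbp3 an adjusted p = 0.434 and Penk an adjusted p = 0.163. Among CD4 T cells of the 7 isotype mice Penk ranged from 2.90 to 820 CPM (median 399). Removal of the 10% of barcodes with the highest doublet score left 0 calls of 3972 genes (196 at an unadjusted p below 0.05), leaving out floxed anti-PD-1 mouse 4 left 0, and leaving out LysM-Cre anti-PD-1 mouse 1 gave 11. The fibroblast list (Col1a1, Col3a1 and Dcn) summed to 14.8 to 1508 CPM in the 3 anti-PD-1 mice (median 509), against 3.90 to 420 CPM in the 8 isotype mice (median 43.6). Its part in the calls was not tested. No gene of the fixed lists passed, and the interferon list had a median log2 change of -1.34 over 24 genes, against -0.01 over all genes. None of 60 antibodies passed (0%), with 4 at an unadjusted p below 0.05, and DESeq2 called 4.

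Nr3c1 was examined in macrophages and in the members, since the floxed allele is the study's target. In macrophages it ranged from 22.9 to 77.8 CPM over 8 LysM-Cre mice (median 39.6), against 53.9 to 74.8 CPM over 8 floxed mice (median 67.4). The highest of all 16 values, 77.8 CPM, came from the mouse labelled LysM-Cre isotype 4, so that label was not borne out by macrophage Nr3c1. In the members the genotypes could be compared in 4 LysM-Cre and 3 floxed isotype mice. Nr3c1 was at 138, 74.1, 97.6 and 102 CPM in LysM-Cre and 60.8, 78.2 and 83.5 CPM in floxed mice, or 103 ± 26.4 CPM (SD, n = 4) and 74.2 ± 11.9 CPM (SD, n = 3), with a log2 change of 0.46 (SE 0.29, adjusted p = 1.0). The groups overlapped. The edgeR call of genes between genotypes was 0 without the mouse labelled LysM-Cre isotype 4 as well, and its removal left 4 genes between treatments. Without that mouse the LysM-Cre minus floxed difference in the share of kept cells was 0.561 points with isotype (exact adjusted p = 0.499). The anti-PD-1 minus isotype difference was then -1.41 points in LysM-Cre mice (exact adjusted p = 0.274) and -0.937 points over both genotypes (exact adjusted p = 0.167). The difference of differences among CD3-positive cells was -4.99 points (exact p = 0.0339). The genes called were 422 against NK cells, 587 against CD4 T cells and 255 against CD8 T cells. Where the deleted part of Nr3c1 lies relative to the counted 3′ end is not given in the labels, so UMIs may come from outside it and the check has that limit.

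No gene of 4607 passed between LysM-Cre and floxed members (0%), with 205 at an unadjusted p below 0.05, and DESeq2 called 0. None of 57 antibodies passed (0%), with 2 at an unadjusted p below 0.05, and DESeq2 called 1. The list medians ran from -0.83 for 14 cell-cycle genes to 0.20 for 8 recirculation genes among the T cell lists, and the median over all genes was 0.01. Leaving out LysM-Cre isotype mouse 1, LysM-Cre isotype mouse 2 or floxed isotype mouse 2 gave 1 call each.

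Transcripts of other cell types were present in the members and in the other lymphocyte sets. The 7 macrophage genes summed to 564 to 1830 CPM per mouse in the members (median 1327), against 452 to 1356 CPM in NK cells (median 822). The 3 neutrophil genes ranged from 48.9 to 7672 CPM in the members (median 101), against 56.3 to 1791 CPM in NK cells (median 93.6). The mast cell genes ranged from 0 to 1162 CPM (median 5.31), against 0 to 14.2 CPM in NK cells (median 3.24). The high values came from single mice. Of the melanoma genes Mlana, Dct and Tyr were at 0 in the members of these mice, and of the dendritic genes Flt3 and Xcr1. Their part in the differences between cell sets was not tested.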

How the data were processed

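Gene, antibody and hashtag counts of 2 pooled CITE-seq libraries were taken from the deposited matrices. The authors made these UMI counts with Cell Ranger (6.1.2 per the file headers, 3.0.1 with mm10 per the submitters' processing notes), and no normalization precedes them. The mouse of a cell follows from its hashtag, and the hashtag-to-group map is in the deposited antibody table. That table gives Hashtag 8 and Hashtag 9 the same tag. The labels name 89 antibodies and the matrix holds 88.

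The members, lists and tests were chosen with earlier results of these data known. UMIs were summed per mouse and cell set and fitted with edgeR 4.0.16 (quasi-likelihood, TMM, genes passing filterByExpr, antibodies with at least 100 counts), with Benjamini-Hochberg adjustment over all features tested. Mice with at least 10 cells of each set entered, or at least 5 for treatment. Since both sets come from the same animals, the mouse was a block. Treatment was fitted with 5 members per mouse in place of 10, a limit changed after the data were seen because no anti-PD-1 mouse held 10. Shares per mouse were tested by exact permutation (two-sided) and adjusted over 12 tests. Doublets were scored with Scrublet (scanpy 1.11.5) and kept. DESeq2 1.42.0 was an alternative.

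Named genes were the 12 largest changes per direction with an adjusted p below 0.05, a mean of at least 10 CPM and the sign in 3 of 4 mice or more, up to 5 per list and direction, and the antibodies that passed. A fold against a set with no UMI uses a floor of 3 UMIs over the set. Intervals and floors cover counting error only. The tests were tried on simulated data. Some genes, antibodies and a comparison among the members are not reported here.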

Additional observations from a re-analysis of the deposited data

Results flagged for a closer look

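Among 137 groups of 4 mice examined for a single distant value, 14 held one, and chance gives about 1 in 20. All 14 were levels in members of LysM-Cre isotype mice, the only group with 4 mice of at least 10 members and so the only one in which levels were examined. Mouse 3 stood apart for Lef1 (176 CPM), Ctla4 (39.0 CPM), Ddit4 (117 CPM), Fkbp5 (137 CPM), CD127 (4034 antibody CPM) and CD39 (19296 antibody CPM), and had the fewest members of the group, 15. Mouse 2 stood apart for the interferon genes Ifi27l2a (1794 CPM) and Irf7 (511 CPM) and for Gzmd (125 CPM), Gzme (109 CPM) and Klra5 (3.90 CPM). Mouse 1 stood apart for Maf (164 CPM) and Gzmk (5.31 CPM), and mouse 4 for Ifng (94.9 CPM). Values of 5.31 and 3.90 CPM correspond to 1 UMI each.

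The anti-PD-1 minus isotype difference in the members' share of CD3-positive cells differed between LysM-Cre and floxed mice by -5.14 percentage points (exact permutation p = 0.0245, adjusted 0.0490 over 2 tests), a test added after the data were seen. Genotypes were relabelled within each treatment, so the p does not isolate a difference between treatment effects. With each mouse left out the difference of differences ran from -6.28 to -4.43 points, with exact p up to 0.0555. The same difference among all kept cells was -0.788 points (exact permutation p = 0.207).

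In barcodes outside the comparisons, 19 met the gene rule and failed the hashtag limits, with a median of 14692 UMIs, against 6666.5 in the members.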

How the results depend on the processing

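The difference in the members' share of kept cells between anti-PD-1 and isotype mice passed the threshold with the 10% of highest doublet scores removed (-1.01 percentage points, exact adjusted p = 0.0490) and without LysM-Cre anti-PD-1 mouse 1 (-1.06 points); with 1 mouse left out it ran from -1.06 to -0.736 points. With 1 mouse left out the genotype difference over both treatments ran from -0.177 to 0.241 points. Without a filter on low counts the genes called were 126 for treatment, 103 for genotype, 917 against NK cells and 565 against CD8 T cells. DESeq2 called 6 genes for treatment, and 4 antibodies for treatment and 1 for genotype. Members with at least 2 Trdc UMIs gave 1 treatment gene, and removal of high doublet scores gave 0 genes and 2 antibodies. Members with at least 3 TCRgd antibody counts gave 315 genes against CD4 T cells and 195 against CD8 T cells. With 1 mouse left out the genes called ran from 0 to 11 for treatment, 0 to 1 for genotype, 381 to 463 against NK cells, 433 to 603 against CD4 T cells and 203 to 291 against CD8 T cells. Without the replicate block, 22 named calls were lost and 174 remained, and the counts were 524 against NK cells, 506 against CD4 T cells and 246 against CD8 T cells. The cause of these changes was not tested. A limit of 10 cells per mouse gave no value for treatment.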
